A study of Rattus norvegicus with 24 samples.

Results

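The miR-10 family of the rat was followed through small RNA sequencing of 2 brain regions 3 months after traumatic brain injury (TBI) or sham surgery. Members were all rows named miR-10a or miR-10b in the count tables of both regions, which gave 4 mature miRNAs of 728 miRNA rows, rno-miR-10a-5p, rno-miR-10a-3p, rno-miR-10b-5p and rno-miR-10b-3p (written without the prefix for rat below). The rows were matched by name, but the family was picked with its regional and injury values in these libraries in view, so those values are given as a description. The rats were adult male Sprague-Dawley animals, and the labels give no transgene or drug. TBI rats received a lateral fluid-percussion injury, a pressure pulse onto the intact dura through an opening in the left parietal skull. In the sham group the skull was opened under anaesthesia and no pulse was given. Tissue was taken from 6 TBI and 6 sham rats, in each from the perilesional cortex (bordering the lesion) and from the thalamus on the same side, which gave 24 libraries in 4 groups of 6. The TBI rats that were sequenced had been chosen on magnetic resonance images for chronic inflammation around the lesion, so they stand for that kind of outcome.

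MicroRNAs are short RNAs cut from a hairpin precursor. The strand that is kept is loaded into Argonaute, where bases 2 to 8, the seed, pair with target mRNAs. The miR-10 genes lie within the Hox clusters, the gene arrays that set position along the body axis, and they are best known from the trunk and the caudal nervous system. The forebrain arises in front of the Hox domain, so cortex and thalamus are regions in which the host clusters are normally quiet.

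The 5p sequences are shown because the paralogs are so alike that their separate rows have to be read with the sequence in view. All 4 members had an entry in the RefSeq table (GRCr8), from which the sequences below were taken, 5′ to 3′ with the seed in capitals.
miR-10a-5p: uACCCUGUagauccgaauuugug
miR-10b-5p: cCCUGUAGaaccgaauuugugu
Mir10b hairpin at the place of miR-10a-5p: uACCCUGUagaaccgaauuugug
Mir10a lies at chr10:81779709-81779818 on the plus strand of GRCr8, between Hoxb5 and Hoxb4. Mir10b lies at chr3:80035859-80035967 on the plus strand, inside the annotated span of Hoxd4. The 23-base window of the Mir10b hairpin was identical to miR-10a-5p at 22 positions, and the 1 difference was U12A, counted from the 5′ end of miR-10a-5p. The annotated miR-10b-5p starts 2 bases farther in than this window, so the annotated seeds differ, ACCCUGU for miR-10a-5p and CCUGUAG for miR-10b-5p. Each of these seeds occurred in 1 of the 693 mature sequences of the table. A miR-10b read that began at the window's first base would carry the seed of miR-10a-5p. In the study, reads with shifted ends or mutations were sorted as isomiRs of the annotated miRNAs. Whether the 2 count rows include them, and how reads matching both were assigned, is not given in the sources used here, so the division of reads between the 2 rows is uncertain, while their sum is less so.

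Each library held between 523298 and 4139901 reads on miRNAs, and the counts of every pair of libraries in a group differed by more than sampling noise. The tissues carried the markers of brain in every library. The neuronal list (miR-124, miR-9a, miR-128, miR-138) summed to a mean of 468760 in sham cortex and 218830 in sham thalamus. Sums here are normalised read counts (CPM, per 1000000 miRNA reads of a library) divided by a factor for library composition, the trimmed mean of M-values (TMM). They are therefore not shares of reads. The factors were 0.718 to 0.923 in sham cortex and 0.854 to 1.23 in sham thalamus, which widens the gap between these neuronal sums. Most of both sums came from miR-128-3p (means of 331370 and 130730) and miR-9a-5p (119650 and 73804). For miR-124-3p the means were 7705.6 and 6177.7, and it was not called between the regions (edgeR adjusted p = 0.234). Oligodendrocyte miRNAs (miR-219a, miR-338) were higher in thalamus, with 4 of 5 called in sham and 4 of 5 in TBI rats (edgeR). Of all 407 miRNAs tested, 25.1% and 27.3% were called in these comparisons. The oligodendrocyte sums were 5192.7 in sham cortex and 16122 in sham thalamus. These are bulk tissues, so fewer cells of a type and less RNA per cell cannot be told apart.

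Both 5p strands were detected in all 24 libraries at a middling level, with 4581 reads of miR-10a-5p and 4626 of miR-10b-5p in total. By mean CPM before TMM they ranked between 202 and 228 of 728 rows in the 4 groups. The 3p strands were close to absent. miR-10a-3p had 30 reads in 12 libraries, at most 5 in any of them, and made up 0.651% of the reads of its hairpin (95% Wilson interval 0.456 to 0.927%). miR-10b-3p had 10 reads in 7 libraries and a share of 0.216% (0.117 to 0.397%). Of the 10 reads of miR-10b-3p, 7 came from the TBI thalamus, where 4 of 6 libraries had at least 1. Intervals on reads cover counting error only, because amplified reads without molecular identifiers are not independent molecules. Both 3p rows were below the filter on low counts, so 2 of 4 members entered the fits.

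Levels are given as CPM, scaled for library composition by the trimmed mean of M-values (TMM) over all 24 libraries. In sham cortex, rno-miR-10a-5p ran from 30.1 in rat 26 over a median of 89.6 to 207 in rat 50 (96.2 ± 61.2, SD, n = 6). In TBI cortex it ran from 58.9 over 82.2 to 135 (92.8 ± 28.5, SD, n = 6). The TBI cortex values all lay within the span of the sham cortex, which was the widest of any group. In sham thalamus the lowest, median and highest values were 51.5, 105 and 150 (105 ± 34.4, SD, n = 6). In TBI thalamus they were 54.2, 73.7 and 127 (80.6 ± 25.2, SD, n = 6). Here too every TBI value fell within the sham range, but 5 of 6 were below the sham median, with rat 45 the exception.

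rno-miR-10b-5p was steadier in sham cortex, at 60.1, 82.8 and 118 (84.8 ± 21.2, SD, n = 6). In TBI cortex it was 46.2, 94.8 and 129 (92.8 ± 32.2, SD, n = 6), with values both above and below the sham range. The highest group was sham thalamus, where the values were 67.3 in rat 32, a median of 118 and 222 in rat 55 (127 ± 53.3, SD, n = 6). The lowest was TBI thalamus, at 45.2 in rat 56, a median of 66.5 and 122 in rat 45 (71.9 ± 26.9, SD, n = 6). The sham and TBI thalamus overlapped, yet 3 TBI values were below every sham value and 3 sham values were above every TBI value. The order of group means was therefore sham thalamus, TBI cortex, sham cortex and TBI thalamus for miR-10b-5p, and sham thalamus, sham cortex, TBI cortex and TBI thalamus for miR-10a-5p, and neighbours in either order differed by less than the larger of their SDs.

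**Figure D1:**
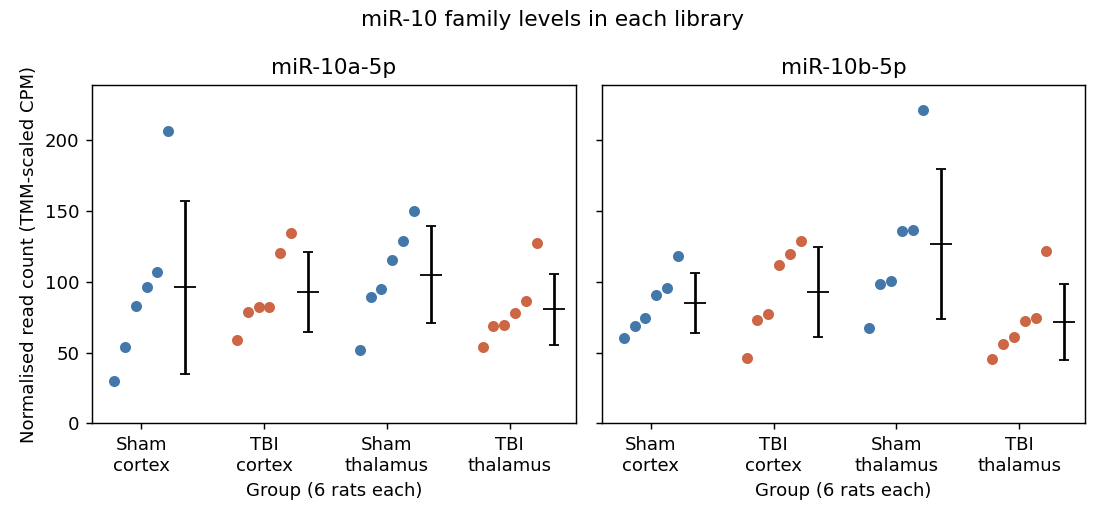
Normalised read count (TMM-scaled CPM, linear axis from 0) of miR-10a-5p and miR-10b-5p in each library by group, blue for sham and orange for TBI, with the mean and SD of 6 rats in black. The groups overlap throughout, and miR-10b-5p has its highest mean in sham thalamus (127) and its lowest in TBI thalamus (71.9).

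The spread among rats exceeded that from counting. The coefficient of variation within groups lay between 25% and 63.6%, whereas Poisson counting alone would give 7.39 to 10.9%. The fewest reads behind a value were 23, for miR-10b-5p in the TBI thalamus of rat 56. The top value of miR-10b-5p, in the sham thalamus of rat 55, rested on 99 reads from the shallowest library.

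The balance of the paralogs was even on average and shifted among animals. miR-10b-5p made up 50.4 ± 15.8% (SD, n = 6) of the reads of both in sham cortex, from 26.5% in rat 50 (Wilson interval 20.6 to 33.4%) to 75.1% in rat 26 (68.4 to 80.9%). These are the libraries at the top and the bottom of the miR-10a-5p range, while their miR-10b-5p levels were 74.7 and 90.9. In TBI cortex the share was 49.5 ± 10.9%, in sham thalamus 54.3 ± 5.02% and in TBI thalamus 46.8 ± 6.37% (SD, n = 6 each). The share was over 50% in 5 of 6 sham thalami and in 1 of 6 TBI thalami. The Wilson interval included 50% in the sham thalami of rats 26, 32 and 38 and in the TBI thalami of rats 22, 45 and 56. All these shares depend on the uncertain division of reads between the rows.

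**Figure D2:**
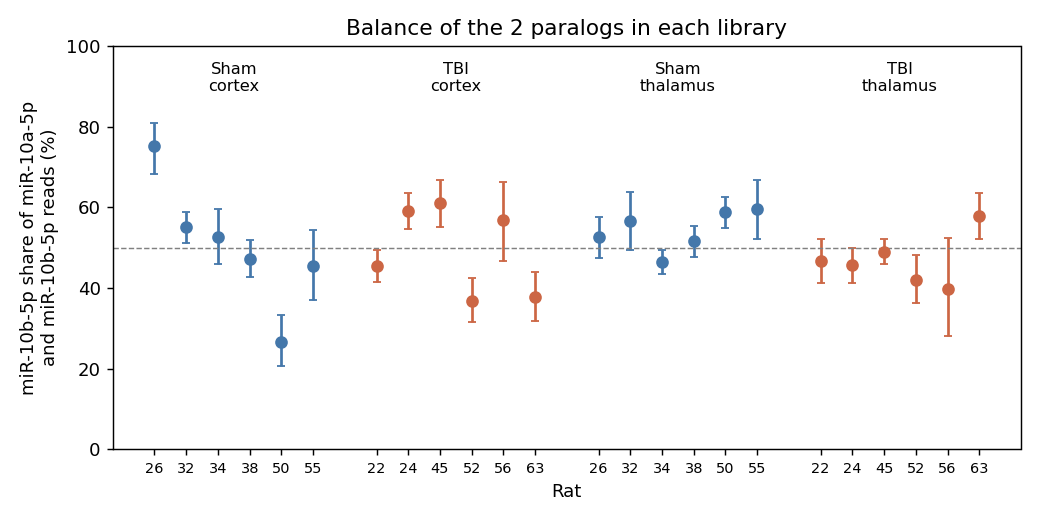
Share of miR-10b-5p in the reads of miR-10a-5p and miR-10b-5p (percent) for each library, labelled by rat, with 95% Wilson intervals and a dashed line at equal shares. Sham cortex spans 26.5 to 75.1%, wider than either thalamic group.

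Regional identity was examined in the sham rats first, as the difference of thalamus and cortex without injury. In that comparison miR-10b-5p was 0.55 log2 units higher in thalamus (SE 0.28, 95% interval -0.02 to 1.13), and miR-10a-5p differed by 0.13 (SE 0.33, -0.54 to 0.81). Within animals, miR-10b-5p was higher in the thalamus of 5 of 6 sham rats, all but rat 32, and miR-10a-5p in 4 of 6. edgeR called 0 of the 2 members that could be tested, and 0 had an unadjusted p under 0.05, whereas 25.1% of 407 miRNAs were called between these regions, 12.8% higher and 12.3% lower in thalamus. DESeq2 also called 0. The 6-against-6 ranges overlapped for both members, as they did for all but 14% of miRNAs. The direction of miR-10a-5p rested on the cortex of rat 26, without which its difference was -0.036.

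In TBI rats both members had lower fitted values in thalamus than in cortex. The difference was -0.35 for miR-10b-5p (SE 0.28, -0.93 to 0.22) and -0.20 for miR-10a-5p (SE 0.33, -0.88 to 0.47). miR-10b-5p was higher in the thalamus of 2 of 6 TBI rats and miR-10a-5p in 3 of 6. Again edgeR and DESeq2 each called 0 of 2 members, with 0 at an unadjusted p under 0.05, against 27.3% of 407 miRNAs called by edgeR (14% higher and 13.3% lower in thalamus) and 11.8% without overlap. Without the thalamus of rat 63 the miR-10a-5p difference was 0.0069.

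**Figure D3:**
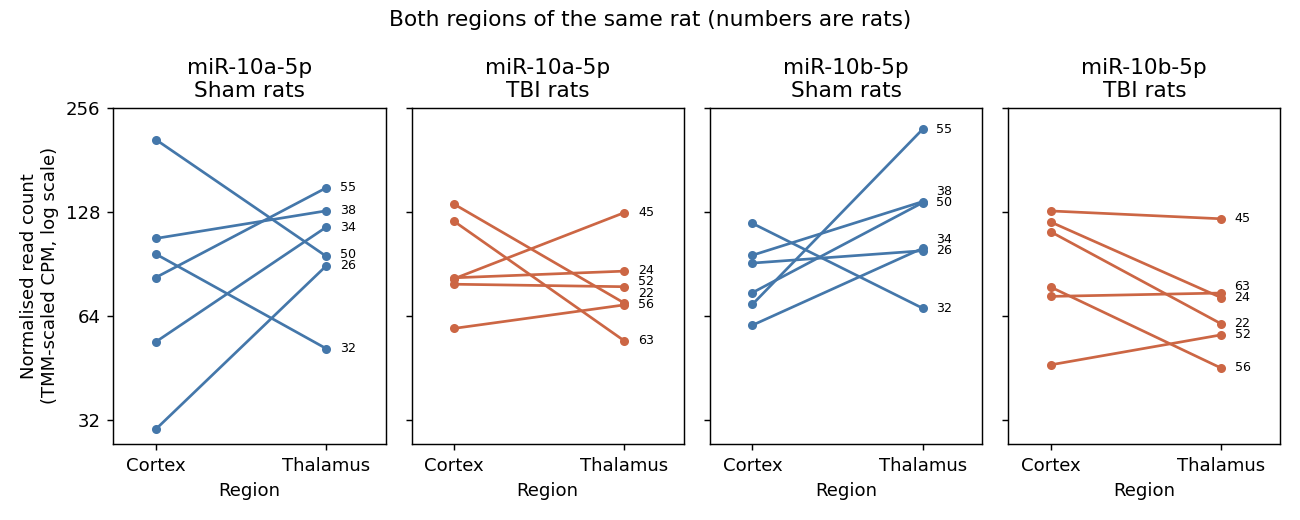
Normalised read count (TMM-scaled CPM, log scale) in cortex and thalamus of the same rat, 1 line per rat with its number at the thalamic end, for each member and surgery. Lines for miR-10b-5p rise toward thalamus in 5 of 6 sham rats and in 2 of 6 TBI rats.

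The question of an injury effect was asked in each region on its own, TBI against sham. In the perilesional cortex neither paralog moved beyond the spread: the difference was 0.02 for miR-10a-5p (SE 0.34, -0.71 to 0.75) and 0.15 for miR-10b-5p (SE 0.24, -0.36 to 0.66). edgeR called 0 of the 2 members there, 0 were at an unadjusted p under 0.05, and DESeq2 called 0, beside 5.93% of 371 miRNAs called, 2.96% higher and 2.96% lower, and 2.43% without overlap. The sign for miR-10b-5p turned without the cortex of TBI rat 45 (-0.0049). For miR-10a-5p it turned without any 1 of the cortices of rats 22, 26, 34, 55 or 63, over a range of -0.22 to 0.37 for all libraries left out in turn.

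In the ipsilateral thalamus the fitted values of both paralogs were lower after TBI. miR-10b-5p differed by -0.81 (SE 0.30, -1.46 to -0.16) and miR-10a-5p by -0.38 (SE 0.27, -0.95 to 0.20), beside a median of -0.03 over all 390 miRNAs tested. Neither was called after adjustment by edgeR or DESeq2. By edgeR 1 of the 2, miR-10b-5p, had an unadjusted p under 0.05, as did 5.13% of all miRNAs, and it stood at place 11 when miRNAs were ordered by p. The share called was 0.513%, all of it higher after TBI (0% lower), and 1.28% had ranges that did not overlap. Leaving out the sham thalamus of rat 55 moved the miR-10b-5p difference to -0.49, and leaving out the TBI thalamus of rat 45 moved it to -0.94.

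Marker lists of other cell types are set beside the miR-10b-5p difference in the same thalami, and their part in it was not tested. Of the leukocyte and microglial list (miR-142, miR-223, miR-150, miR-146a, miR-155) 2 of 5 tested miRNAs were called higher after TBI, miR-146a-5p (1.04) and miR-155-5p (1.45). The study also reported both in thalamus and links them to astrocytes, so they do not mark leukocytes or microglia alone. The tested miR-142-3p, miR-142-5p and miR-150-5p (0.58, 1.01 and 0.48) were not called. The summed level of the list ran from 1081.3 to 1525.2 in sham and from 1470.4 to 2820.7 in TBI rats. No miRNA of the next 4 lists was called (edgeR). The vascular list (miR-126a of endothelium, miR-143 and miR-145 of smooth muscle) had 0 of 6 called, a median log2 difference of 0.32 and sums of 28591 to 41552 in sham and 29694 to 54693 in TBI rats. The choroid plexus and ependymal list, in which miR-204-5p and miR-34c-5p were the most abundant, had 0 of 6 called, a median of 0.27 and sums of 2565.3 to 8044.2 and 2096.4 to 20330. Among these 4 lists, 2 had medians in the direction of miR-10b-5p. The skeletal muscle list had 0 of 3 called, a median of -0.64 and sums of 328.7 to 571.02 in sham and 127.83 to 418.25 in TBI rats. The neuronal list had 0 of 6 called, a median of -0.33 and sums of 176560 to 330180 and 128500 to 251420. At an unadjusted p under 0.05 by edgeR there was 1 miRNA in each of these 2 lists, miR-1-3p of muscle (-0.87) and miR-138-5p of neurons (-0.61), and 0 in the vascular and choroid plexus lists. Of the leukocyte and microglial list 4 of 5 were at an unadjusted p under 0.05. No row of these 5 lists was at 0 reads in either thalamic group. The red cell list had 0 of 2 called and a median of -0.07, and the oligodendrocyte list 0 of 5 and a median of 0.01. The libraries with the most miR-10b-5p stood apart in several lists. Among sham thalami rat 55 was highest in the vascular, neuronal, oligodendrocyte lists and in that of miR-99, miR-100 and miR-125, and its TMM factor was 0.854 against 1.11 to 1.23 in the others. Among TBI thalami rat 45 was highest in the vascular, choroid plexus, leukocyte and red cell lists and lowest in the neuronal and oligodendrocyte lists.

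Both injury effects were then set against each other in 1 fit of all 24 libraries. The TBI difference in thalamus minus that in cortex was -0.91 for miR-10b-5p (SE 0.39, -1.72 to -0.09) and -0.34 for miR-10a-5p (SE 0.46, -1.29 to 0.62). No miRNA was called for this difference by edgeR (0% of 407, 17 at an unadjusted p under 0.05) or by DESeq2, and miR-10b-5p was at place 9 in order of p. That fit treated both regions of a rat as independent. Over 31 alternatives, among them the rat as a block, the difference was -1.15 to -0.74 for miR-10b-5p. For miR-10a-5p it was -0.72 to -0.18, and 0 settings called either. With the 2 rows added together, which leaves aside how reads were divided between them, the TBI difference was -0.61 in thalamus (SE 0.28) and 0.03 in cortex (SE 0.23), and neither was called.

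**Figure D4:**
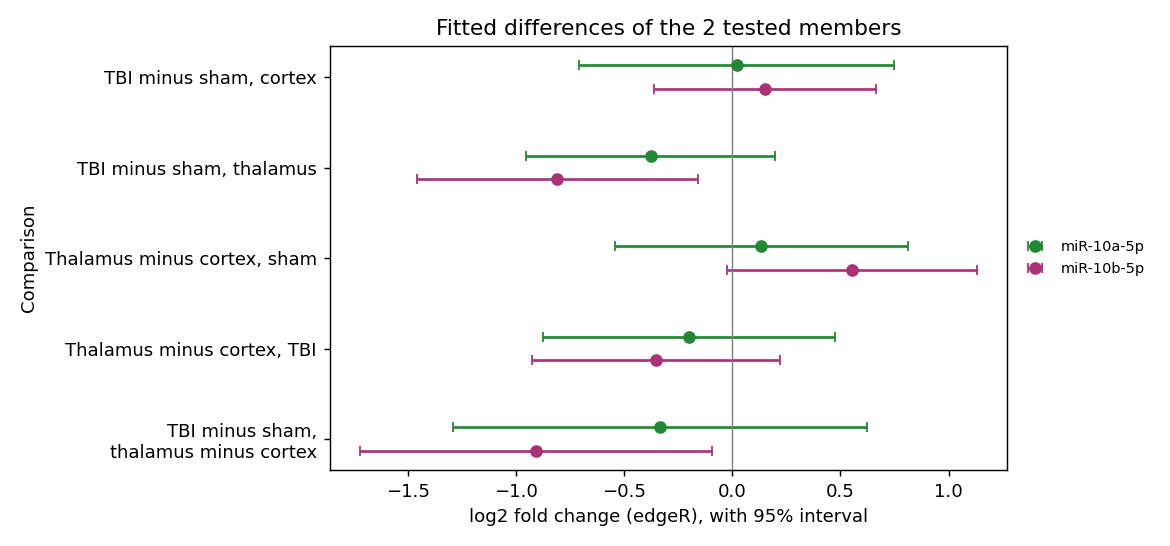
Fitted log2 fold changes of miR-10a-5p (green) and miR-10b-5p (purple) with 95% intervals in the 5 comparisons, as a description of members picked with these values in view. The fits hold no term for the rat. The intervals of miR-10b-5p leave out 0 for TBI minus sham in thalamus (-1.46 to -0.16) and for the thalamic minus the cortical injury effect (-1.72 to -0.09), and all others include it.

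For comparison, 86 miRNAs lay within a factor of 2 of each member's mean level. The smallest called difference among them was 0.39 between regions in sham rats, 0.50 between regions in TBI rats and 0.83 for TBI in cortex. None of them (0) was called for TBI in thalamus. These values are not limits of detection, because a call also depends on the spread of each miRNA. In sham rats miR-10b-5p differed by 0.55 between regions and was not called (edgeR adjusted p = 0.158). The SEs there were 0.28 for miR-10b-5p and 0.33 for miR-10a-5p, against a median of 0.24 among the 86. For TBI in cortex the SE of miR-10a-5p (0.34) was larger than that of 74 of the 86, and that of miR-10b-5p (0.24) than that of 57.

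Variation among rats within a group was not used to pick the family, so the paralogs were correlated across the 6 rats of each group and each paralog between both regions of the same rats, 8 relations in all. The closest was between miR-10a-5p and miR-10b-5p in sham thalamus, with r = 0.87 (exact permutation p = 0.0264, adjusted over the 8 relations 0.211) and rho = 0.94 (exact permutation p = 0.0167, adjusted 0.133). Without the 2 rats farthest from the median of miR-10a-5p, r fell to 0.33. Leaving them out also narrows the range, so this value cannot show whether the relation rests on those rats. With library size alone as the scaling r was 0.83 and rho 0.71 (exact permutation p = 0.136 for rho). With 4 endogenous control miRNAs they were 0.87 and 0.83 (exact permutation p = 0.0583 for rho). In TBI thalamus r was 0.67 (exact permutation p = 0.142, adjusted 0.536) and rho 0.37 (exact permutation p = 0.497, adjusted 0.902), and r was 0.77 without the 2 farthest. In cortex the paralogs had r = 0.05 in sham (rho 0.31, exact permutation p = 0.929 for r, adjusted 0.949) and 0.20 in TBI rats (rho 0.20, exact permutation p = 0.688 for r, adjusted 0.917). Without the 2 farthest rats these r were 0.82 and 0.26. Between the regions of the same rats, r lay between -0.55 and 0.56 and rho between -0.43 and 0.54 for the 4 relations (exact permutation p for r from 0.263 to 0.949). None of the 8 relations passed the adjustment.

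The other miRNAs of the Hox clusters were next to absent. They comprise miR-196a, miR-196b and miR-196c and miR-615, which in GRCr8 lie beside or within Hox genes as the miR-10 genes do. Their 7 rows held 5 reads among 47424242, against 9207 for the 2 miR-10 5p rows. 4 of these reads were of miR-196a-5p and 1 of miR-196b-5p, and 5 rows had no read, which allows up to 0.0633 CPM over all libraries. None of the 7 could be tested. The miR-196 seeds are shown because a single family accounts for the 5 reads.
miR-196a-5p: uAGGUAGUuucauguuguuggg
miR-196b-5p: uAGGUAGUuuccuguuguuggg

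The nearest relatives by sequence, miR-99 and miR-100, lie outside the Hox clusters in genes shared with let-7 and miR-125. Their 5p sequences resemble those of miR-10 and are shown for the altered seed.
miR-99b-5p: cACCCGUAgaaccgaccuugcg
miR-100-5p: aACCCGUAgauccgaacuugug
Both have the seed ACCCGUA, and the longest run that miR-100-5p shares with miR-10a-5p is the 11 bases GUAGAUCCGAA. These relatives were far more abundant. miR-100-5p was at 10351 ± 2149.6 in sham cortex and 14904 ± 6585.8 in sham thalamus, miR-99a-5p at 42138 ± 9857.8 and 36228 ± 12709, and miR-99b-5p at 6369.8 ± 1273.6 and 8115.8 ± 3968.2 (SD, n = 6 each). Of the 11 rows of miR-99, miR-100 and miR-125, 10 were tested in each comparison. After TBI 0 of 10 were called in cortex and 0 of 10 in thalamus (edgeR), beside 5.93% and 0.513% of all miRNAs, with medians of 0.04 and 0.03. Between regions 0 of 10 were called in sham and 1 of 10 in TBI rats, beside 25.1% and 27.3% of all miRNAs, and in TBI rats miR-100-5p was higher in thalamus by 0.56 log2 units (SE 0.20, edgeR adjusted p = 0.0365). In sham rats the same miRNA differed by 0.53 with an edgeR adjusted p of 0.0535. For none of the 11 did the ranges of any compared groups separate.

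The miRNAs whose levels were most like those of the members over 24 libraries, among 383 compared, are a description of shared libraries and 1 shared scaling. For miR-10a-5p the closest was miR-10b-5p with r = 0.43, followed by miR-130a-3p (0.42), miR-344a-3p (0.41), miR-345-3p (0.39) and miR-425-5p (0.35). For miR-10b-5p they were miR-154-3p (0.58), miR-455-5p (0.57), miR-204-5p (0.46), miR-15b-3p (0.44) and miR-10a-5p (0.43). Of these, miR-154-3p and miR-15b-3p had libraries with 0 reads. After the 4 group means were taken out, miR-143-3p (0.70), miR-145-3p (0.63) and miR-204-5p (0.54) came closest to miR-10b-5p. Those for miR-10a-5p were miR-130a-3p (0.52), miR-203a-3p (0.48) and miR-344a-3p (0.45). By these deviations the members had r = 0.38 with each other. That put miR-10b-5p at place 7 for miR-10a-5p, and miR-10a-5p at place 17 for miR-10b-5p. The miR-143-3p level, at 21290 ± 4180.5 in sham and 26162 ± 7242.9 in TBI thalamus (SD, n = 6 each), did not share the direction of the miR-10b-5p group means there.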

How the data were processed

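RNA from the pieces of a region was pooled per rat, made into 1 library with a NEBNext kit and sequenced on an Illumina NextSeq instrument. Per the study's methods, the rat assembly RGSC3.4 served for mapping and release 20 of miRBase for naming. The authors deposited whole-number counts per miRNA for each region, which were used as deposited. Deposited tables of CPM for a filtered subset of rows were not used. The 444 tRNA rows of the cortical table were left out of library sizes. Counts were filtered with filterByExpr, scaled by TMM and tested with edgeR 4.0.16 (quasi-likelihood, robust, R 4.3.3), each region alone for injury and all 24 libraries together for the other contrasts, with Benjamini-Hochberg adjustment over all miRNAs at 0.05. Intervals are at 95%. DESeq2 1.42.0 was an alternative, as were other scalings and filters, each library left out, and the rat as a block. Relations used exact two-sided permutation tests.

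Cortex and thalamus with the same number in their titles were taken to come from 1 rat. The titles give the number and the region but do not state the pairing. Deviations from group means correlated between them with a median r of 0.38 (-0.18 to 0.64, over 0.1 in 8 of 12 rats). Labels give 1 library per rat and region.

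The members and the lists were chosen with earlier results of these data known. The text names every row of both families, the Hox and miR-99/100/125 rows by counts, and for likeness the 5 closest miRNAs by level and 3 by deviation. Precision is limited by 23 to 559 reads of each 5p member per library.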

Additional observations from a re-analysis of the deposited data

How the results depend on the processing

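No member was called under any setting, except miR-10b-5p between the regions of sham rats with library size alone as the scaling (0.98, adjusted p = 0.00618 by edgeR), where the median of all miRNAs was itself at 0.46, and relative to the median the difference was 0.53 against 0.52 with TMM. The thalamic injury difference of miR-10b-5p stayed negative in all 19 alternatives (-0.94 to -0.49), as did that of miR-10a-5p (-0.47 to -0.16). The cortical injury difference of miR-10a-5p, near 0, changed sign with DESeq2 size factors (-0.0011), 4 endogenous control miRNAs (-0.00014), the DESeq2 test (-0.017) and all 24 libraries in 1 fit (-0.027). Leaving out each library in turn gave -0.22 to 0.37 for it, -0.0049 to 0.28 for miR-10b-5p in cortex, -0.036 to 0.50 for miR-10a-5p between regions in sham and -0.31 to 0.0069 in TBI rats. Relations near 0 also changed sign: the paralogs in sham cortex with library size (-0.12) and miR-10a-5p between regions in sham rats with library size (0.13) and control miRNAs (0.26). The r of miR-10a-5p between regions in TBI rats, not near 0, went from -0.35 with TMM to 0.20 with control miRNAs. The cause was not tested. With the rat as a replicate block, miR-10b-5p was at 0.50 between regions in sham and -0.35 in TBI rats, and the block changed the call of neither 5p member. The number of miRNAs called, other than with libraries left out, ran from 1 to 41 for TBI in cortex, 0 to 5 in thalamus, 72 to 167 between regions in sham and 80 to 131 in TBI rats. With libraries left out these were 4 to 30, 0 to 2, 86 to 116 and 89 to 114. The summed rows were added after seeing the data.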

Other observations

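Calls in the marker lists stand beside 25.1% and 27.3% of all miRNAs called between regions in sham and TBI rats, 5.93% for TBI in cortex and 0.513% in thalamus. Of the vascular list 3 of 6 miRNAs were lower in thalamus than in cortex in sham and 1 of 6 in TBI rats, and of the skeletal muscle list (miR-1, miR-133, miR-206) 2 of 4 in each, with 1 of 4 lower after TBI in cortex. Of the choroid plexus and ependymal list 4 of 7 tested miRNAs were higher in thalamus in sham rats, all arms of miR-34b and miR-34c, and 5 of 7 in TBI rats, the same 4 and miR-204-5p. Its miR-200a-3p differed by -0.19 and -1.38 and was not called. After TBI miR-211-5p rose in cortex by 1.33 log2 units (SE 0.34, edgeR adjusted p = 0.0355). Of the neuronal list 3 of 6 were lower in thalamus in sham and 5 of 6 in TBI rats, and 1 of 6, miR-128-3p, fell after TBI in cortex. The red cell list had 0 of 3 tested called between regions and 0 of 2 after TBI in either region, and the oligodendrocyte list had 0 of 4 and 0 of 5 called after TBI in cortex and thalamus (edgeR throughout).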
